A study of Mus musculus with 8 samples.

Results

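The regulators and partners of the KEAP1-NRF2 pathway were followed in mouse embryonic fibroblasts (MEFs) with and without Keap1, grown in culture and as tumours in mice. The 10 genes were taken by symbol: Keap1, Nfe2l2, Nfe2l1, Cul3, Rbx1, Mafg, Mafk, Maff, Bach1 and Sqstm1. All 10 were on the array, on 13 probes, and were tested among 22919 targets in all. Total RNA had been labelled with Cy3 and hybridised to 8 mouse arrays, 2 for each of 4 groups. The groups were WT TR MEFs from dishes, Keap1-/- TR MEFs from dishes, and the tumours that cells of each genotype formed after injection into nude (nu/nu) mice, called allografts here. The letters TR stand in the names of both genotypes and are not spelled out. Per the labels, 10000000 WT cells or 3000000 Keap1-/- cells were injected and tumours were taken at 100 to 150 mm3, so that the number of injected cells, the genotype and the cell line cannot be told apart. No label says whether the arrays of a group come from separate cultures or animals, and p-values measure the spread between arrays, which may be technical. Nude mice lack a thymus and mature T cells but keep macrophages and natural killer cells.

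KEAP1 is the substrate adaptor of a ubiquitin ligase built on the cullin CUL3 and the RING protein RBX1. In unstressed cells this ligase ubiquitinates NRF2, the product of Nfe2l2 and a transcription factor, which the proteasome then degrades, and electrophiles that modify KEAP1 let NRF2 accumulate. NRF2 and its relative NRF1, encoded by Nfe2l1, bind antioxidant response elements as dimers with the small MAF proteins MAFG, MAFK and MAFF, which have no activation domain of their own. BACH1 pairs with the same small MAFs and represses a subset of the elements until haem displaces it. SQSTM1, also called p62, binds KEAP1 and carries it to autophagosomes, and Sqstm1 and Mafg are themselves known targets of NRF2. Control of NRF2 by KEAP1 acts on the protein, which the arrays do not measure.

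The antioxidant response element (ARE) was looked for in the RefSeq promoter windows of these genes (build GRCm38.p6, 300 bases around each start, most of them upstream), because several of them are reported targets of the factors they encode. The core letters TGACNNNGC, read on both strands, were found in 4 of 16 windows, which belong to 4 of the 10 genes, against 12.392% of 32851 windows and 13.991% of 27025 genes over the whole table. The longer form, the same letters followed by an A, was found in none of the 16 and in 3.041% of all windows. The TPA-type MAF recognition element was likewise found in none of the 16 and in 0.155% of all windows. The stretches around the 4 core matches are shown on the strand of the gene, 5′ to 3′, with the match in capitals. They come from chr2:75704870-75704913 (Nfe2l2, minus strand), chr5:139791498-139791535 (Mafk, plus strand), chr11:120633736-120633794 (Mafg, minus strand) and chr15:79346484-79346542 (Maff, plus strand).
Nfe2l2: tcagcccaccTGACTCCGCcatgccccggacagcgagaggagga
Mafk: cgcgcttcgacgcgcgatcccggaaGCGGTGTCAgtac
Mafg: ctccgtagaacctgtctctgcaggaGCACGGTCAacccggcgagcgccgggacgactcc
Maff: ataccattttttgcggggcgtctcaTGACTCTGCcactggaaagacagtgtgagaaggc
The matches in Nfe2l2 and Maff lie on the strand of the gene and those in Mafk and Mafg on the other strand. A match is a run of letters and not a bound site, and all 4 genes with one encode transcription factors of the dimer itself. The small MAF genes hold 3 of the 4 matches.

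Signals are given as the scaled level, the log2 of the processed intensity minus the 75th percentile of the same array, so that 0 marks that percentile. Each of the 13 probes was well above background on all 8 arrays, and no value was missing or saturated. Over all probes the median intensity ranged from 44.8 to 61.9 in dishes and from 106 to 137 in allografts. The replicate 1 arrays of all 4 groups share slide 1 and the replicate 2 arrays share slide 2, so each comparison could be read within a slide. Of 11 fibroblast markers all were well above background on every array but Lum, which was not in WT dishes. Vim was high in every group (mean scaled level 7.01 to 7.67), while Dcn was at -0.73 in WT dishes, 2.73 in Keap1-/- dishes, 5.48 in WT allografts and 7.46 in Keap1-/- allografts. Host cells entered the allografts: the summed level of 14 macrophage markers was 102 and 115 in WT allografts, 26.8 and 27.2 in Keap1-/- allografts and 1.74 to 2.72 in dishes, in multiples of the 75th percentile, with Cx3cr1 not well above background in Keap1-/- allografts. The summed level of 10 endothelial markers was 2.56 to 2.76 in dishes and 17 to 19.4 in allografts of either genotype, and that of 10 skeletal muscle markers was 34.2 and 13.7 in Keap1-/- allografts and 6.09 and 2.66 in WT allografts. The part of these host cells in the differences described for allografts was not tested, and in a tissue sample fewer cells of a type and less RNA per cell cannot be told apart. Comparisons of allograft with dish, also where worded as WT or Keap1-/- cells, set whole tumours with host cells against cultured cells.

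In dishes, 3 of the 10 genes were called lower in Keap1-/- cells: Keap1 itself and the small MAF genes Mafk and Maff. Over all targets, 9.78% were called lower and 21.1% in either direction (limma, Benjamini-Hochberg adjusted p below 0.05, one fit of 4 group means over 8 arrays). In allografts the picture was wider and mostly turned upward: Nfe2l2, Nfe2l1, Cul3, Mafg, Maff and Sqstm1 were called higher in Keap1-/- tumours and Keap1 lower, 7 of 10 genes against 41.8% of all targets, of which 20.5% were higher and 21.3% lower. The median log2 fold change of the 10 genes was -0.17 in dishes and 0.59 in allografts, against -0.05 and 0.00 over all targets. The arrays of the genotypes did not overlap for 6 of the 10 genes in dishes and 9 in allografts, against 58.7% and 70.3% of all targets with every value measured.

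**Figure D1:**
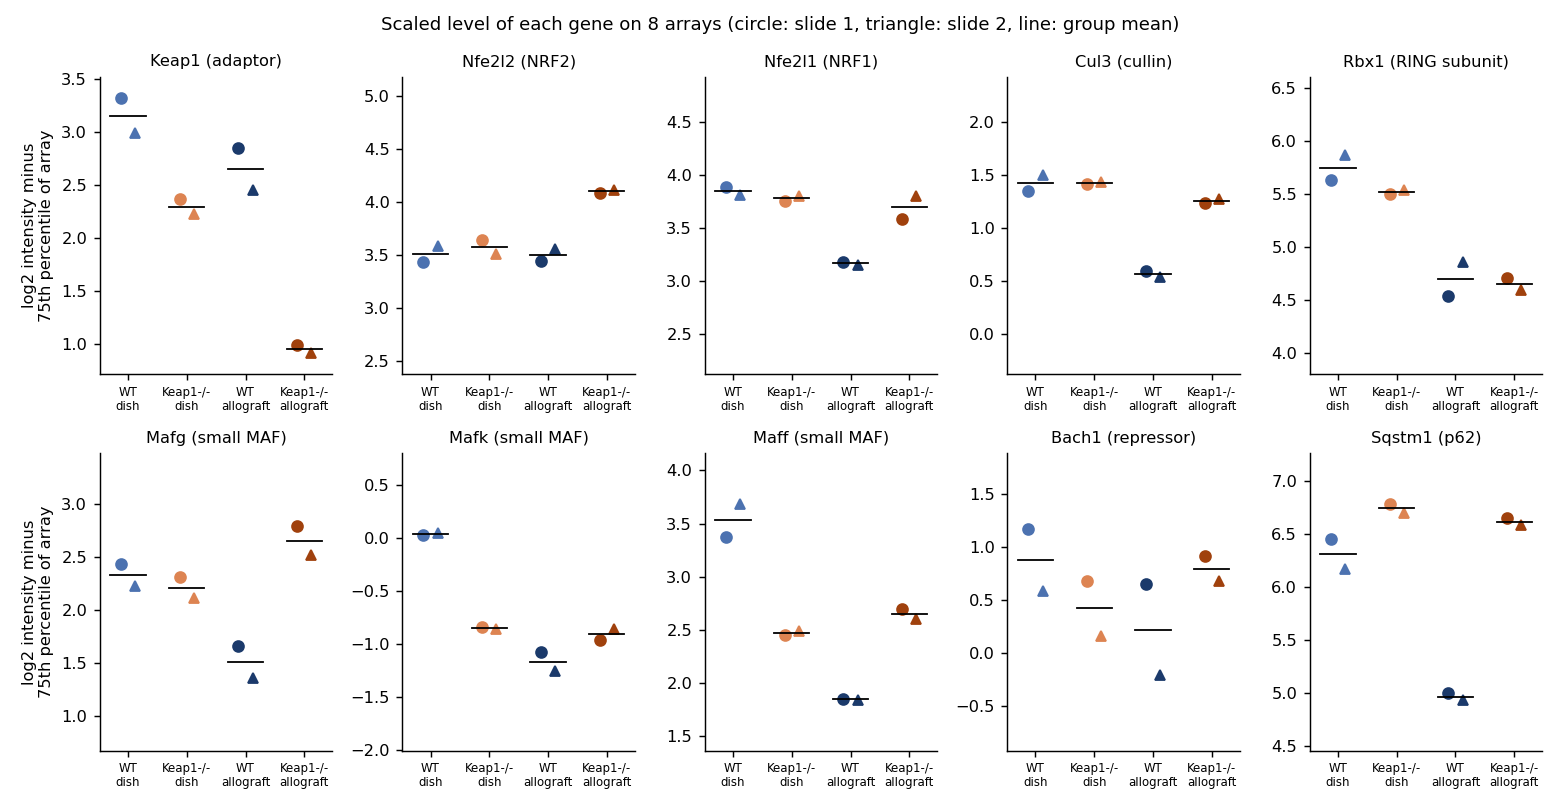
Scaled level (log2 intensity minus the 75th percentile of the array, vertical axis) of each of the 10 genes on 8 arrays, by group; circles are slide 1, triangles slide 2 and lines group means, and every panel spans the same number of log2 units. Keap1 is lowest in Keap1-/- allografts (1.00 and 0.92), while Cul3, Maff and Sqstm1 are lowest in WT allografts.

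Keap1, the adaptor and the targeted gene, had a scaled level of 3.32 and 2.99 in WT dishes, 2.85 and 2.46 in WT allografts, 2.37 and 2.22 in Keap1-/- dishes and 1.00 and 0.92 in Keap1-/- allografts. From high to low the order was WT dish, WT allograft, Keap1-/- dish and Keap1-/- allograft, with no overlap between neighbours. The signal in Keap1-/- cells was therefore lower but not lost. In dishes Keap1 was 1.82-fold lower in Keap1-/- cells, a log2 fold change of -0.86 ± 0.17 (SE; limma adjusted p = 0.0197). In allografts it was 3.23-fold lower (-1.69 ± 0.17, adjusted p = 0.000722). Within slides 1 and 2 the difference was -0.95 and -0.77 in dishes and -1.85 and -1.54 in allografts. The sources used here do not place the probe inside or outside the deleted part of the gene, so its signal is no check of the labels. The dish call ended without WT dish array 1 (adjusted p = 0.091), Keap1-/- dish array 1 (0.0744) or Keap1-/- dish array 2 (0.111), and with unscaled intensities (0.0796).

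Keap1 also fell with growth as a tumour. In Keap1-/- cells its level in allografts was 2.53-fold below that in dishes (a log2 fold change of -1.34 ± 0.17 SE, limma adjusted p = 0.000935). In WT cells it was 1.42-fold lower (-0.50 ± 0.17, adjusted p = 0.0423), a call at the edge of the threshold. The WT value was -0.03 with quantile normalisation and -0.12 unscaled. The WT call also ended without WT dish array 1 (-0.34, adjusted p = 0.19), without WT allograft array 2 (-0.31, 0.19) or without any 1 of the 4 Keap1-/- arrays (0.065). The genotype difference of Keap1 was larger in allografts by 0.83 on the log2 scale (interaction -0.83 ± 0.25, adjusted p = 0.0475). That call ended without any 1 of 6 arrays and held without WT dish array 1 or WT allograft array 2. With all arrays it also ended under median scaling and with no filter on dim probes.

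Nfe2l2, which encodes NRF2, stood apart in a single group. Its scaled level was 3.44 and 3.59 in WT dishes, 3.44 and 3.56 in WT allografts, 3.64 and 3.52 in Keap1-/- dishes and 4.09 and 4.12 in Keap1-/- allografts. The first 3 groups overlapped and the Keap1-/- allografts lay above them all. The transcript was 1.52-fold higher in Keap1-/- than in WT allografts (log2 fold change 0.60 ± 0.10 SE, limma adjusted p = 0.00529), with 0.64 on slide 1 and 0.56 on slide 2. In dishes the genotypes differed by 0.07 (adjusted p = 0.743, 95% interval -0.19 to 0.32). A second Nfe2l2 probe gave 0.61 in allografts (adjusted p = 0.00861) and 0.02 in dishes (adjusted p = 0.937), the same pattern from another sequence.

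The interaction for Nfe2l2 was 0.54 ± 0.14 (limma adjusted p = 0.0356), and 0.59 on its second probe (adjusted p = 0.041). This call rested on the full set of arrays: it held without WT dish array 1 and ended without any other single array (adjusted p from 0.0616 to 0.129). With all arrays the interaction call also ended with quantile normalisation, with normexp background and with no filter on dim probes. With unscaled intensities the interaction was 0.18 and not called, and the allograft call of Nfe2l2 ended too (0.37, limma adjusted p = 0.239). Against its own dish culture, Nfe2l2 was 1.44-fold higher in Keap1-/- allografts (0.52 ± 0.10, adjusted p = 0.00506), but this direction turned when arrays were scaled to their median (-0.34, adjusted p = 0.0416). In WT cells the allograft value was -0.01 (adjusted p = 0.932), with 0.50 under quantile normalisation (adjusted p = 0.00825) and -1.03 under median scaling (adjusted p = 0.000283).

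Nfe2l1 encodes NRF1, a membrane-bound relative of NRF2 that, once cleaved and released, drives the genes of proteasome subunits. Its scaled level was 3.89 and 3.81 in WT dishes, 3.18 and 3.15 in WT allografts, 3.75 and 3.80 in Keap1-/- dishes and 3.59 and 3.80 in Keap1-/- allografts. Only the WT allografts stood clearly lower, and the Keap1-/- groups overlapped each other. Nfe2l1 was 1.44-fold higher in Keap1-/- than in WT allografts (log2 fold change 0.53 ± 0.10 SE, limma adjusted p = 0.00901). Unscaled it was 0.30 with no call (adjusted p = 0.247). In dishes the difference was -0.07 (95% interval -0.32 to 0.18, adjusted p = 0.719). WT allografts were 1.60-fold below WT dishes (-0.68 ± 0.10, limma adjusted p = 0.00158). This fall passed neither with quantile normalisation (-0.20, adjusted p = 0.165) nor unscaled (-0.30, adjusted p = 0.199). Keap1-/- allografts were at -0.09 against their dishes (adjusted p = 0.502). The interaction was 0.60 ± 0.15 (limma adjusted p = 0.0255). Its call held without Keap1-/- allograft array 1 and ended without any other single array. With all arrays it also ended unscaled (0.24), with quantile normalisation, with normexp background and with no filter on dim probes.

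Of the 2 subunits of the ligase core, Cul3 was called between genotypes in allografts and Rbx1 was not. Cul3, the cullin scaffold that KEAP1 docks on, had a scaled level of 1.35 and 1.51 in WT dishes, 0.60 and 0.54 in WT allografts, 1.42 and 1.44 in Keap1-/- dishes and 1.24 and 1.27 in Keap1-/- allografts. The dish groups overlapped, the Keap1-/- allografts lay just below them and the WT allografts far below. Cul3 was 1.61-fold higher in Keap1-/- than in WT allografts (log2 fold change 0.69 ± 0.09 SE, limma adjusted p = 0.0021), with 0.64 and 0.73 on the 2 slides. In dishes the genotypes were at 0.00 (95% interval -0.22 to 0.23, adjusted p = 0.986). WT allografts were 1.81-fold below WT dishes (-0.86 ± 0.09, adjusted p = 0.000389) and Keap1-/- allografts at -0.17 (adjusted p = 0.145). The interaction for Cul3 was 0.68 ± 0.13 (adjusted p = 0.011), and 0.67 without Keap1-/- dish array 1, where the call ended (adjusted p = 0.0508). Unscaled intensities ended the allograft call (0.46, adjusted p = 0.131), the WT growth call (-0.47, adjusted p = 0.0888) and the interaction call (0.33, adjusted p = 0.486).

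Rbx1, the RING subunit that recruits the ubiquitin-loaded enzyme, was called between growth conditions and not between genotypes. Its scaled level was 5.64 and 5.86 in WT dishes, 4.54 and 4.86 in WT allografts, 5.50 and 5.54 in Keap1-/- dishes and 4.71 and 4.59 in Keap1-/- allografts. Every dish array lay above every allograft array, and the allograft groups overlapped. Against dishes Rbx1 was 2.07-fold lower in WT allografts (log2 fold change -1.05 ± 0.14 SE, limma adjusted p = 0.00106). In Keap1-/- allografts it was 1.83-fold lower (-0.87 ± 0.14, adjusted p = 0.00258). The genotype differences were -0.23 in dishes (95% interval -0.58 to 0.13, adjusted p = 0.348) and -0.05 in allografts (-0.40 to 0.31, adjusted p = 0.829). Rbx1 has 3 probes, which disagreed on growth. A second probe fell by 1.02 in WT and by 0.96 in Keap1-/- allografts (limma adjusted p = 0.000127 and 0.000179, each probe tested on its own), whereas the third gave 0.02 (adjusted p = 0.876) and -0.32 (adjusted p = 0.0711). The fall of Rbx1 was thus measured by 2 of its 3 probes, and with quantile normalisation the WT value was -0.39 (adjusted p = 0.0703).

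The 3 small MAF genes, whose proteins are largely interchangeable partners of NRF2, are taken in turn. Mafg had a scaled level of 2.44 and 2.22 in WT dishes, 1.66 and 1.36 in WT allografts, 2.31 and 2.11 in Keap1-/- dishes and 2.79 and 2.52 in Keap1-/- allografts. The dish groups overlapped, with the Keap1-/- allografts above and the WT allografts below them. Mafg was 2.21-fold higher in Keap1-/- than in WT allografts (log2 fold change 1.14 ± 0.16 SE, limma adjusted p = 0.00276), at 1.13 on slide 1 and 1.16 on slide 2. In dishes the difference was -0.12 (95% interval -0.52 to 0.29, adjusted p = 0.705). Against dishes, WT allografts were lower by 0.82 (± 0.16, limma adjusted p = 0.00531), with -0.44 and adjusted p = 0.171 unscaled. Keap1-/- allografts were at 0.44 (adjusted p = 0.0557), which passed with the slide as a block (adjusted p = 0.0035) and was -0.42 under median scaling. The interaction for Mafg was 1.26 ± 0.23 (adjusted p = 0.00966; 0.91 and adjusted p = 0.0969 unscaled).

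Mafk was highest in WT dishes. Its scaled level was 0.02 and 0.05 in WT dishes, -1.07 and -1.26 in WT allografts, -0.85 and -0.86 in Keap1-/- dishes and -0.96 and -0.86 in Keap1-/- allografts. The other 3 groups lay within a narrow band well below it. Mafk was 1.85-fold lower in Keap1-/- dishes than in those of WT cells (log2 fold change -0.89 ± 0.10 SE, limma adjusted p = 0.0023), with -0.87 and -0.90 on the 2 slides, and this call held under every alternative run. In allografts the difference was 0.26 (95% interval 0.01 to 0.50, adjusted p = 0.0894). Against dishes, WT allografts were lower by 1.20 (± 0.10, limma adjusted p = 0.000135) and Keap1-/- allografts were at -0.06 (adjusted p = 0.621). The interaction for Mafk was 1.14 ± 0.14 (adjusted p = 0.00217; 0.79 and adjusted p = 0.0736 unscaled).

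Maff changed direction between culture and tumour. Its scaled level was 3.38 and 3.68 in WT dishes, 1.85 and 1.84 in WT allografts, 2.45 and 2.49 in Keap1-/- dishes and 2.69 and 2.60 in Keap1-/- allografts. No group overlapped another, and WT cells held both the highest and the lowest level. In dishes Maff was 2.08-fold lower in Keap1-/- cells (log2 fold change -1.06 ± 0.12 SE, limma adjusted p = 0.00252). It was 1.74-fold higher in Keap1-/- than in WT allografts (0.80 ± 0.12, adjusted p = 0.00345). The allograft call ended unscaled (0.58, adjusted p = 0.0998). WT allografts were 3.21-fold below WT dishes (-1.68 ± 0.12, adjusted p = 8.08e-05). The Maff interaction of 1.86 ± 0.17 was the largest of the 10 genes (adjusted p = 0.000784), and it kept its call under each of the 19 alternatives, at 1.51 to 2.02. In Keap1-/- cells allograft and dish differed by 0.18 (adjusted p = 0.253), a value that was -0.69 under median scaling (adjusted p = 0.00241) and 0.40 under quantile normalisation (adjusted p = 0.0349).

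Bach1, the haem-regulated repressor, was the least precisely measured of the 10. Its scaled level was 1.17 and 0.58 in WT dishes, 0.65 and -0.21 in WT allografts, 0.68 and 0.16 in Keap1-/- dishes and 0.91 and 0.68 in Keap1-/- allografts. In each group the slide 1 array was the higher one, by 0.59, 0.86, 0.52 and 0.24 in that order, against a median absolute slide difference of 0.17 over all targets. Neighbouring groups overlapped at every step of the order. The log2 fold change between genotypes was -0.45 ± 0.36 SE in dishes (limma adjusted p = 0.463) and 0.57 ± 0.36 in allografts (adjusted p = 0.254, 95% interval -0.31 to 1.45). Read within slides, the allograft difference of Bach1 was 0.26 and 0.89. With the slide as a block, adjusted p became 0.0346 for the allograft difference, 0.0147 for WT allograft against dish (-0.65) and 0.0209 for the interaction (1.03), while the dish difference was still not called.

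Sqstm1, the autophagy receptor that sequesters KEAP1, had a scaled level of 6.45 and 6.16 in WT dishes, 4.99 and 4.93 in WT allografts, 6.78 and 6.70 in Keap1-/- dishes and 6.65 and 6.58 in Keap1-/- allografts. The WT allografts lay far below the other 3 groups, and the Keap1-/- arrays were the highest in each growth condition. Sqstm1 was 3.14-fold higher in Keap1-/- than in WT allografts (log2 fold change 1.65 ± 0.12 SE, limma adjusted p = 0.000186), with 1.66 and 1.65 on the 2 slides, and the call held under every alternative run. In dishes the difference was 0.43 ± 0.12 (adjusted p = 0.0532), just short of the threshold, and it passed with the slide as a block (adjusted p = 0.0242) and without WT dish array 1 (0.57, adjusted p = 0.0381). WT allografts were 2.54-fold below WT dishes (-1.34 ± 0.12, limma adjusted p = 0.00018). Keap1-/- allografts were at -0.12 against their dishes (95% interval -0.42 to 0.17, adjusted p = 0.402), with -0.99 and adjusted p = 0.00173 under median scaling. The interaction for Sqstm1 was 1.22 ± 0.17 (adjusted p = 0.00342; 0.86 and adjusted p = 0.062 unscaled).

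**Figure D2:**
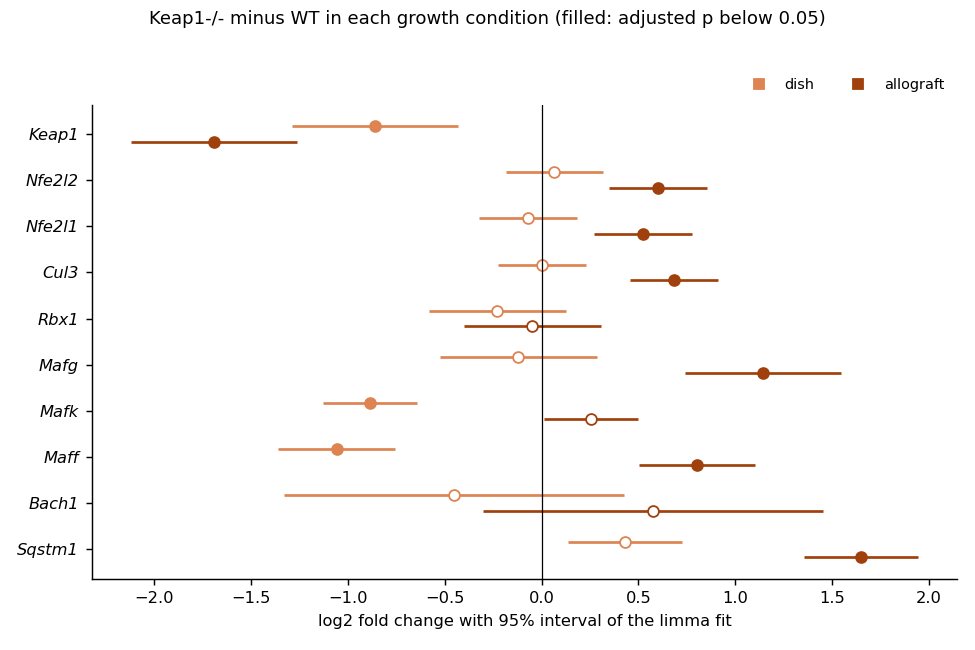
Log2 fold change of Keap1-/- against WT (horizontal axis) for the 10 genes in dishes (light) and allografts (dark), with the 95% interval of the limma fit; filled points have an adjusted p below 0.05. Mafk and Maff lie to the left in dishes, Sqstm1 and Mafg farthest to the right in allografts, and Keap1 to the left in both.

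Allografts, which hold host cells as well, differed broadly from dishes, and the readout of this difference depended on the scaling of the arrays. In WT cells 8 of the 10 genes were called lower in allografts than in dishes, against 32.2% of all targets lower, 35.9% higher and 68.1% in either direction, with a median of -0.84 against -0.02 over all targets. The 2 without a call were Nfe2l2 and Bach1. In Keap1-/- cells 3 of 10 were called (Keap1 and Rbx1 lower, Nfe2l2 higher) against 64.9% of all targets, 35.8% higher and 29.1% lower, with a median of -0.07 against 0.03. Arrays did not overlap between allograft and dish for 8 of 10 genes in either genotype, against 83.4% of all targets in WT and 81.9% in Keap1-/- cells. Scaling to the array median moved the median of all targets to -1.04 in WT and -0.84 in Keap1-/- cells. All 10 genes were then called lower in WT and 8 in Keap1-/- cells, against 84.2% and 80.9% of all targets in either direction. Unscaled, the median of all targets was 0.36 in WT and 0.05 in Keap1-/- cells, and 4 and 2 genes were called, against 51.9% and 52.9% of all targets. The median of the 10 genes minus that of all targets in WT cells was -0.82 under the main scaling, -0.82 under median scaling, -0.82 unscaled and -0.37 with quantile normalisation. Genotype and growth comparisons share arrays, so a level such as that of WT allografts enters both.

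**Figure D3:**
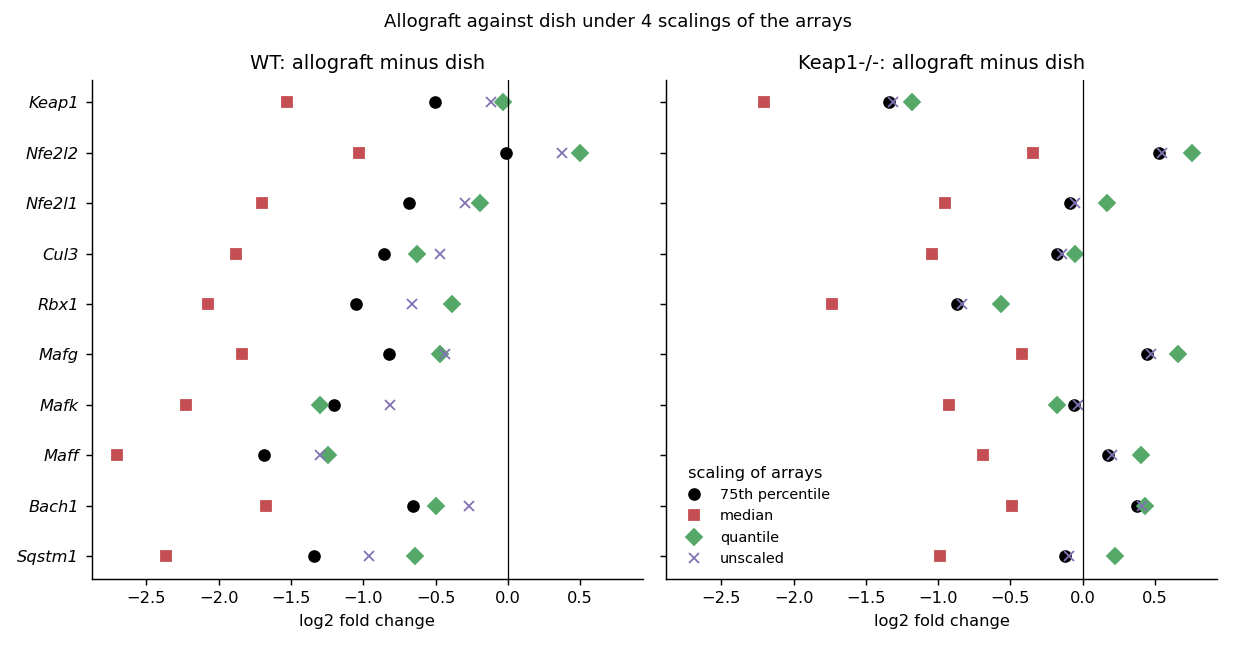
Log2 fold change of allograft against dish (horizontal axis) for the 10 genes in WT (left) and Keap1-/- cells (right) under 4 scalings of the arrays. Median scaling shifts all genes to the left, and Nfe2l2 in WT cells lies on either side of 0, from -1.03 under median scaling to 0.50 under quantile normalisation.

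The genotype difference in allografts was set against that in dishes for each gene. The interaction was called for 8 of the 10 genes, 7 higher and Keap1 lower, against 32.9% of all targets, 15.8% higher and 17% lower, with a median of 0.86 against 0.04. Rbx1 (0.18, 95% interval -0.32 to 0.68, limma adjusted p = 0.561) and Bach1 (1.03, -0.21 to 2.27, adjusted p = 0.18) were not called. Under unscaled intensities 2 of the 10 remained past the threshold, Keap1 and Maff, against 24.2% of all targets. The interaction of the macrophage markers ran opposite to that of most of the 10 genes, with 10 of 14 called lower and 1 higher (median -2.73). In Keap1-/- allografts 12 were called lower and 1 higher, against 21.3% and 20.5% of all targets. Cd14 went against the rest, with a mean of 2.49 in WT and 3.06 in Keap1-/- allografts. The summed level of the macrophage markers was higher in WT than in Keap1-/- allografts and lowest in dishes. The summed level of 11 lymphocyte markers moved the same way, at 1.26 and 1.68 in WT and 0.208 and 0.361 in Keap1-/- allografts. That of 7 neutrophil markers moved the other way, at 1.84 and 2.06 in WT and 3.67 and 4.04 in Keap1-/- allografts. The single neutrophil markers were split: of 6 tested, 2 were called higher and 1 lower in Keap1-/- allografts. S100a9 had a mean of 0.55 in WT and 1.46 in Keap1-/- allografts, and Csf3r one of -2.37 and -3.86. The part of these cells in the interaction calls was not tested.

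Most of the NRF2 targets rose in Keap1-/- cells in both conditions. Of 16 genes, 13 were called higher in dishes, with a median log2 fold change of 0.92, and all 16 in allografts, with a median of 1.97, against 11.4% and 20.5% of all targets called higher. Unscaled, 9 were called in dishes and 14 in allografts, and under median scaling 9 and 15. Gsta4, a glutathione transferase, was 66.9-fold higher in dishes, and Nqo1, a quinone reductase, was 12.2-fold higher in dishes and 55.1-fold in allografts (limma adjusted p = 2.27e-05 and 5.03e-06). Slc7a11, the cystine importer, had a scaled level of -4.29 and -4.22 in WT dishes, -5.34 and -5.64 in WT allografts, -0.30 and -0.17 in Keap1-/- dishes and 2.47 and 2.79 in Keap1-/- allografts. It was the highest in Keap1-/- allografts and the lowest in WT allografts, a 278-fold difference (adjusted p = 6.37e-06). In WT cells 12 of the 16 NRF2 targets were called lower in allografts than in dishes (median -1.03), against 32.2% of all targets. The interaction was called higher for 11 (median 1.10), against 15.8% of all targets, and for 6 unscaled. In Keap1-/- cells 7 were called higher and 2 lower with growth as allografts (median 0.22), against 35.8% and 29.1% of all targets. These counts turned under median scaling to 1 higher and 10 lower (median -0.65).

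The 8 genes known to be repressed by BACH1 partly overlap with that list and include Mafg. In dishes 7 were called higher in Keap1-/- cells (median 0.82), with 4 unscaled and 4 under median scaling. In allografts it was also 7 (median 1.49), against 11.4% of all targets called higher in dishes and 20.5% in allografts. Gclm, the modifier subunit of glutathione synthesis, was at -0.19 and -0.25 in WT dishes, -2.0 and -2.12 in WT allografts, 0.77 and 0.73 in Keap1-/- dishes and 1.22 and 1.01 in Keap1-/- allografts. That is a 1.96-fold difference in dishes and a 9.04-fold difference in allografts (limma adjusted p = 0.00204 and 1.64e-05). Slc48a1, a haem transporter, was 3.84-fold higher in Keap1-/- allografts, and Hmox1, haem oxygenase 1, was 2.55-fold higher in Keap1-/- dishes. Slc40a1, the iron exporter ferroportin, was 51.6-fold higher in Keap1-/- dishes, though well above background on 1 of the 2 WT dish arrays. It is also expressed by macrophages, whose part was not tested, and in WT cells it was 22.8-fold higher in allografts, where the other called genes of the list fell (6 of 8 lower, 4 with quantile normalisation and 2 unscaled, against 32.2% of all targets).

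Proteasome subunit genes, the known targets of NRF1, fell with growth as allografts in both genotypes. Of 31 genes, all were called lower in WT allografts (median -1.02) and 29 in Keap1-/- allografts (median -0.71), against 32.2% and 29.1% of all targets. Unscaled, 20 were called lower in each. Psmd11, a regulatory particle subunit, was at 5.96 and 5.81 in WT dishes, 4.54 and 4.55 in WT allografts, 6.03 and 6.00 in Keap1-/- dishes and 5.52 and 5.53 in Keap1-/- allografts. Its fall was 2.53-fold in WT cells, and between genotypes it was 1.97-fold higher in Keap1-/- allografts (limma adjusted p = 0.000445). In allografts 11 of the 31 were called higher in Keap1-/- cells, against 20.5% of all targets. The median of 0.16 was -0.10 with quantile normalisation, where 5 were called higher and 4 lower. Unscaled it was -0.07, with 1 called higher. In dishes 3 of the 31, Psmc6, Psmd2 and Psmd8, were called lower, against 9.78% of all targets. None of the 3 was called unscaled (limma adjusted p = 0.652, 0.21 and 0.232). The Psmc6 call also ended with quantile normalisation (limma adjusted p = 0.23) and normexp background (0.0648), and that of Psmd8 with normexp background (0.062). The interaction was called higher for 10 (median 0.38) against 15.8% of all targets, but for none unscaled (median 0.03), and with quantile normalisation 4 were higher and 1 lower (median 0.01).

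Of 10 genes that process NRF1, Derl1, Csnk2a1 and Csnk2b were called higher in Keap1-/- than in WT allografts, by 0.55, 0.42 and 0.34 on the log2 scale, against 20.5% of all targets. Derl1 is a channel component of protein retrotranslocation from the endoplasmic reticulum, and Csnk2a1 and Csnk2b encode subunits of casein kinase 2. Unscaled, none of the 3 calls held (limma adjusted p = 0.314, 0.585 and 0.748). Those of Csnk2a1 and Csnk2b also ended under median scaling (limma adjusted p = 0.0558 and 0.12), quantile normalisation (0.0529 and 0.373) and normexp background (0.0585 and 0.197). In WT cells 5 of the 10 were called lower and 2 higher in allografts, against 32.2% and 35.9% of all targets, with Csnk2a1 falling 2.87-fold. Unscaled, 3 were called lower and 3 higher.

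Most genes of the cullin-RING machinery, other cullins among them, were called lower in allografts than in dishes. Of 26 cullin-RING genes, 22 were called lower in WT cells (median -0.79) and 24 in Keap1-/- cells (median -0.59), against 32.2% and 29.1% of all targets. Unscaled, 7 and 11 were called lower, and with quantile normalisation 14 and 16. In WT cells Dcun1d1, Dcun1d3, Cand2 and Cul7 were not called, at -0.23, -0.20, 0.12 and 0.02 (limma adjusted p = 0.174, 0.0756, 0.272 and 0.913), and in Keap1-/- cells Uba3 was not called and Dcun1d3 was called higher. Nae1, a subunit of the NEDD8-activating enzyme, fell 2.08-fold in WT and 2.27-fold in Keap1-/- cells. Against that trend Dcun1d3, a DCN1-like protein of cullin neddylation, was at 1.15 and 1.17 in WT dishes, 0.96 and 0.97 in WT allografts, 0.91 and 0.88 in Keap1-/- dishes and 2.14 and 2.23 in Keap1-/- allografts. It stood high in the Keap1-/- allografts, 2.33-fold above WT allografts (limma adjusted p = 0.000147). Cand2, a cullin-associated protein, went the other way: it was 1.87-fold higher in Keap1-/- than in WT dishes and 1.98-fold lower in allografts. Between genotypes 2 of the 26 were called higher and 1 lower in dishes, against 11.4% and 9.78% of all targets. In allografts 5 were called higher and 1 lower, against 20.5% and 21.3% of all targets. The allograft count depended on the fit, with 3 higher and 5 lower under quantile normalisation, 1 and 1 unscaled, and 9 and 4 with the slide as a block.

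Among partners of SQSTM1 in selective autophagy, 7 of 22 were called higher in Keap1-/- than in WT allografts and 1 lower, against 20.5% and 21.3% of all targets. The 7 became 3 under median scaling, 3 with normexp background and 1 unscaled. Gabarapl1, a lipid-anchored autophagosome protein, was at 4.93 and 4.98 in WT dishes, 4.45 and 4.50 in WT allografts, 5.16 and 5.14 in Keap1-/- dishes and 5.94 and 5.96 in Keap1-/- allografts. It was 2.78-fold higher in Keap1-/- than in WT allografts (limma adjusted p = 6.90e-05). The autophagy receptors Tax1bp1 and Nbr1 were 1.53-fold and 1.47-fold higher, calls that ended unscaled (adjusted p = 0.177 and 0.23). In dishes Tbk1, a kinase of autophagy receptors, was called higher (1.65-fold) and Atg3 lower (1.73-fold), both short of the threshold unscaled (adjusted p = 0.0565 and 0.0597). The Tbk1 call also ended under median scaling (limma adjusted p = 0.0848) and with normexp background (0.083). With growth, 13 of 22 were called lower and 2 higher in WT cells, against 32.2% and 35.9% of all targets, and 6 lower and 4 higher in Keap1-/- cells, against 29.1% and 35.8%. In WT cells the balance turned unscaled (none lower, 4 higher), and with quantile normalisation it was 5 lower and 3 higher. The median shift between genotypes was 0.04 in dishes and 0.12 in allografts, the latter -0.11 unscaled.

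Of 19 genes of other routes that act on NRF2, Gsk3b, Akt1 and Pgam5 were called lower in Keap1-/- dishes, against 9.78% of all targets. They were lower by 1.80-fold, 1.44-fold and 1.33-fold, and none of the 3 was called unscaled (limma adjusted p = 0.0636, 0.37 and 0.484). The Pgam5 call also ended with quantile normalisation (limma adjusted p = 0.0913) and normexp background (0.1001). GSK3 phosphorylates NRF2 for a second ubiquitin ligase, and AKT inhibits GSK3. In allografts 3 were called lower and 2 higher, against 21.3% and 20.5% of all targets. Trim21, an interferon-induced ligase that ubiquitinates SQSTM1, was at -4.40 and -4.27 in WT dishes, -1.22 and -0.77 in WT allografts, -4.15 and -4.19 in Keap1-/- dishes and -4.01 and -3.85 in Keap1-/- allografts. It was 7.67-fold lower in Keap1-/- than in WT allografts (limma adjusted p = 7.75e-05) and stood high only in the tumours with the higher macrophage marker level, whose part was not tested. Of 12 coactivators and repressors of NRF2, Crebbp and Ncoa3 were called lower in Keap1-/- dishes, against 9.78% of all targets. In allografts Kat8 was called higher and 3 lower, among them Med16 (2.11-fold), against 20.5% and 21.3% of all targets. The calls of Crebbp, Ncoa3 and Kat8 ended unscaled (adjusted p = 0.398, 0.189 and 0.23). That of Crebbp also ended with normexp background (limma adjusted p = 0.173).

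The relatives of KEAP1 and NRF2 were read beside them. Of 24 genes with a BTB-Kelch or related adaptor, 3 were called higher and 5 lower in Keap1-/- dishes, against 11.4% and 9.78% of all targets, and 4 higher and 6 lower in allografts, against 20.5% and 21.3%. Unscaled, the dish balance turned to 3 higher and 1 lower. Klhl36 was at -3.66 and -3.73 in WT dishes, -1.45 and -1.48 in WT allografts, -2.99 and -2.98 in Keap1-/- dishes and -3.19 and -3.16 in Keap1-/- allografts, 3.28-fold lower in Keap1-/- allografts (limma adjusted p = 4.27e-05). Klhl24 was 2.35-fold higher there. Klhl13 was not well above background in WT dishes and was at least 23.8-fold higher in Keap1-/- dishes, a bound taken from the mean of the bright group over the floor of the dim one, which on each array is the probe's signal or, where higher, the weakest signal that any probe well above background had. Nfe2, a blood-cell relative of NRF2, was not well above background in dishes and was at least 4.9-fold higher in WT allografts. In Keap1-/- cells its call for growth ended under median scaling, quantile normalisation and normexp background (log2 fold change 0.20, 0.15 and 0.15; limma adjusted p = 0.446, 0.522 and 0.424).

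**Figure D4:**
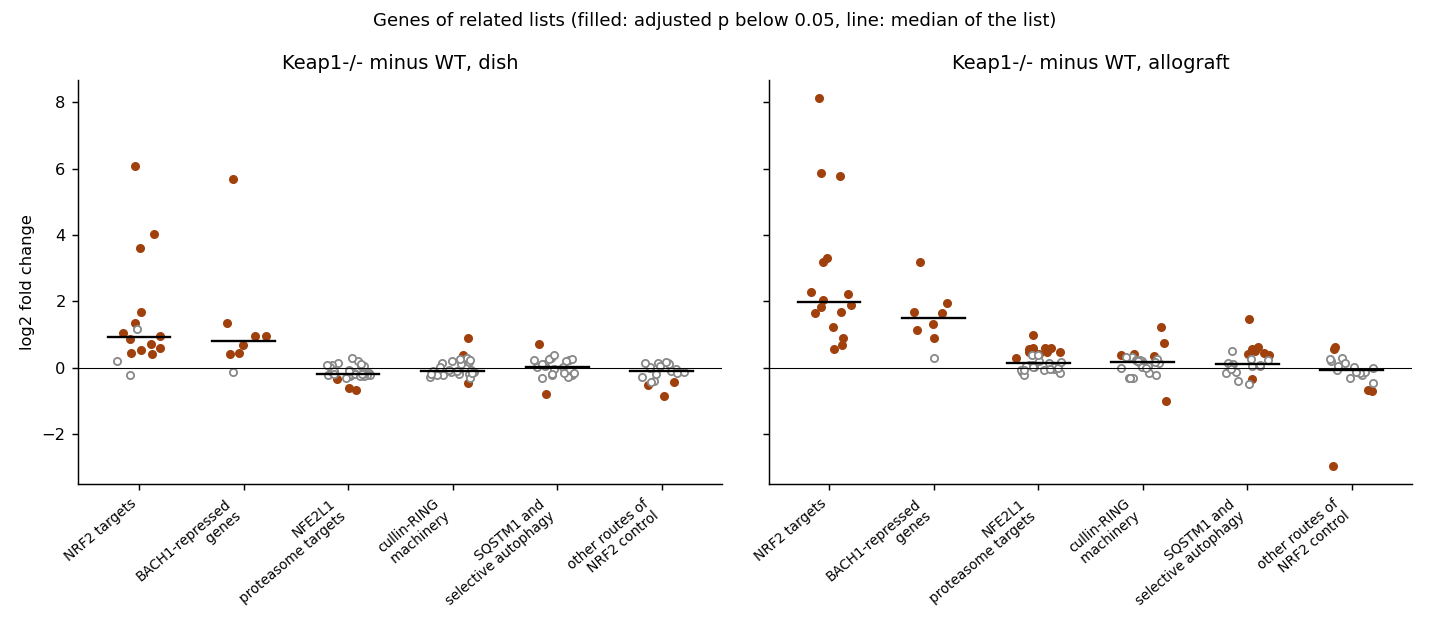
Log2 fold change of Keap1-/- against WT (vertical axis) for genes of 6 related lists in dishes (left) and allografts (right); filled points have an adjusted p below 0.05 and lines are medians. The NRF2 targets and BACH1-repressed genes lie mostly above 0 (medians 0.92 and 0.82 in dishes, 1.97 and 1.49 in allografts), and the other lists centre near 0.

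Each gene was last compared with 12513 others for the likeness of its pattern, as the root mean square difference over the 8 arrays of centred scaled levels, given as a description. Closest to Sqstm1 was Ftl1, the ferritin light chain, at 0.0764, against a median of 0.744 over all candidates. Ftl1 is also one of the NRF2 targets, and it was at 6.57 and 6.51 in WT dishes, 5.13 and 5.26 in WT allografts, 6.97 and 6.95 in Keap1-/- dishes and 6.92 and 6.82 in Keap1-/- allografts. Closest to Maff were Nus1 (0.108), Celf4 (0.112) and Atf4 (0.122, the factor of the amino acid response), against a median of 0.615. Closest to Keap1 were Kcnk5 (0.146), Gne (0.152) and Top1mt (0.164), against a median of 0.82. Nfe2l2 lay nearest to Tpd52 (0.0643), Nfe2l1 to Hmga1 (0.0507) and Cul3 to 1700066M21Rik (0.0388). Rbx1 lay nearest to Exosc3 (0.0496), Mafg to Tbpl1 (0.0901), Mafk to Cltb (0.074) and Bach1 to Kmt5b (0.179). The arrays share their groups, so genes that respond to the same conditions come out near each other.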

How the data were processed

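Per the file headers, Agilent Feature Extraction 10.7.3.1 made the deposited intensities, which it had background-subtracted and not scaled between arrays. The series' deposited value table repeats these intensities, within 0.496%. Their log2, minus the 75th percentile of each array, was computed here with R 4.3.3, after outlier spots were left out and spots of a probe averaged. Tests covered the 30355 of 41174 probes that passed the scanner's background flag on both arrays of 1 group or more. Accessions were matched to RefSeq names of GRCm38.p6, used for names only since the headers name mm9, and 26690 probes gained a symbol. Of several tested probes the one with the highest mean stood for the gene. One limma 3.58.1 fit of 4 group means, with 4 residual and 1.83 prior degrees of freedom, gave all adjusted p-values. With 2 arrays against 2, exact permutation reaches 0.33 at best and was not used. The number of arrays limits the precision.

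Replicate numbers mark slides and scans, and deviations of same-numbered arrays correlated at 0.25 to 0.43 in all 6 pairs of groups, so the slide was also fitted as a block. The alternatives were other scalings, normexp background (on median signals, since the files hold no mean signal), other filters, probe rules and variance models, single slides, and leaving out each array. The 10 genes and the pathway and marker lists were chosen with earlier results of these data known. Named list genes are the 3 largest called changes of a list in a comparison, and up to 3 markers per list. The fits were tested on simulated data.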

Additional observations from a re-analysis of the deposited data

Results flagged for a closer look

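For 8 of the 10 genes the genotype difference in allografts was not the one in dishes, by the interaction term of the limma fit over all targets. The allograft difference minus the dish difference, on the log2 scale, was -0.83 for Keap1 (adjusted p = 0.0475), 0.54 for Nfe2l2 (0.0356), 0.60 for Nfe2l1 (0.0255) and 0.68 for Cul3 (0.011). It was 1.26 for Mafg (adjusted p = 0.00966), 1.14 for Mafk (0.00217), 1.86 for Maff (0.000784) and 1.22 for Sqstm1 (0.00342). Both slides gave the same sign for each of the 8. The first 3 of these calls each ended without 6 or 7 of the 8 arrays, taken one at a time, and that of Maff held under all alternatives run.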

How the results depend on the processing

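Unscaled, 3 of the 10 genes in place of 7 were called between genotypes in allografts, against 32.3% of all targets. For growth in WT cells it was 4 in place of 8, against 51.9%, and for the interaction 2 in place of 8, against 24.2%. With no filter on dim probes the interaction gave 5, against 20.1%. Growth in Keap1-/- cells gave 8 calls under median scaling and 5 with quantile normalisation, in place of 3, against 80.9% and 65.7% of all targets. Nfe2l2 turned to 0.50 for growth in WT cells (quantile) and to -0.34 in Keap1-/- cells (median scaling), and Maff to -0.69 in Keap1-/- cells (median scaling). The cause was not tested. Leaving out 1 array at a time gave 2 to 3 calls for genotype in dishes, 7 in allografts each time, 7 to 9 for growth in WT cells, 3 in Keap1-/- cells and 4 to 7 for the interaction. The replicate block (slide and scan alike) gave 4, 8, 9, 4 and 9 calls in place of 3, 7, 8, 3 and 8. The shares of all targets called were then 28.4%, 49.8%, 74.5%, 71.9% and 40.9%. The block added Sqstm1 in dishes, Bach1 in 3 comparisons and Mafg in Keap1-/- growth, and changed no other call of the 10 genes. In 1003 of 1090 cases the log2 fold change of a gene was counted as unchanged. Such a case kept its direction and its side of the threshold, or changed direction with no call in either fit. Values within a single slide have no p-value and were counted as unchanged when they lay within the spread of the compared groups. Over all targets the calls between genotypes in dishes were 4843, and 2620 unscaled, 2830 with normexp background and 2372 to 3206 without 1 dish array. The share of higher calls was 53.7% there (37.3% under median scaling, 76.4% unscaled), 49% in allografts (30.5% unscaled), 52.7% for WT growth (25.9% and 78.5%), 55.2% for Keap1-/- growth (27.3% under median scaling) and 48.2% for the interaction (23.3% unscaled).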
